A study of Homo sapiens with 4 samples.

Results

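The genes described here are the 6 subunits of the MCM2-7 helicase, MCM2, MCM3, MCM4, MCM5, MCM6 and MCM7, with the loading and activation factors MCM10, CDC6, CDT1 and CDC45. They were taken by name from the deposited expression table, and all 10 were found among its 23284 gene symbols, each on a single row. The table comes from HEK-293, an established human embryonic kidney cell line, transfected with 10 nM of siRNA and left for 48 h before RNA was collected. One treatment used si4 against ZSCAN5A, another si5 against the same gene, another si1 against ZSCAN5B, and the control was a scrambled siRNA. All were given with Lipofectamine RNAi MAX. Each treatment has 1 mRNA library, 4 in all, so there is no error between replicates and no p-value is given. The study asked which genes change when ZSCAN5A or ZSCAN5B, paralogous SCAN zinc finger genes, is knocked down.

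Before a cell can copy its DNA, each origin must be licensed. The origin recognition complex, CDC6 and CDT1 load MCM2-7 as a double ring around DNA in G1, and geminin (GMNN) and the destruction of CDT1 stop further loading once S phase begins. The loaded ring becomes an active helicase when CDC45 and the GINS complex join it, and MCM10 helps that step. Transcription of these genes is a classical target of the E2F factors, which bind DNA together with a DP partner such as TFDP1, and rises as cells pass from G1 into S phase.

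Values are FPKM (fragments per kilobase of transcript per 1000000 mapped fragments), as deposited. ZSCAN5A stood at 0.73 FPKM after si4 and 0.713 after si5, or 30.2% and 29.5% of the control value of 2.42, and at 2.53 after si1. ZSCAN5B was barely expressed, at 0.0331, 0.0663, 0.0948 and 0.0903 FPKM with si4, si5, si1 and the control, from 6, 17, 16 and 15 fragments. With si1 it stood at 105% of the control, with an exact 95% interval for counting error alone of 48.6% to 228%. With si4 it stood at 36.6% (interval 11.6% to 99.9%) and with si5 at 73.4% (34.5% to 158%). A lower level of ZSCAN5B in its own siRNA library was thus not detected in these data, which go against the label on this point. The study itself reported lower ZSCAN5B transcript and protein with si1, by qRT-PCR and Western blot. By qRT-PCR it also reported raised ZSCAN5B with si4, unlike the value here, and some lowering of ZSCAN5D with si5. Those measurements were not analysed here. The si1 sample is referred to by its label (the library labelled as ZSCAN5B knockdown) or as the si1 library. Depth, read from the steps between the FPKM values of weakly expressed genes, was 1.09 times the control with si4, 1.54 times with si5 and 1.02 times with si1, which with annotated transcript lengths corresponds to between 53.7 and 83 times 1000000 fragments per library. That range is wider than the range of reads per sample stated by the study, and the difference was not resolved. At the estimated depth a member's value rests on approximately 3900 to 45200 fragments. Counting error alone then gives log2 ratios a 95% interval of plus or minus 0.0198 to 0.0614. Variation between cultures and library preparations could not be measured. Of the 6 genes checked as known from HEK-293 (VIM, NEFL, NEFM, INA, PAX2 and CDH2), each reached at least 1.16 FPKM in some library. The 8 markers of leukocytes, endothelium, hepatocytes, squamous epithelium and muscle reached at most 0.553 FPKM, with a summed level of 0.474 to 0.753 FPKM per library. PAX2 reached 1.16 FPKM only in the control. It had 0.584, 0.615 and 0.608 FPKM with si4, si5 and si1, near the 0.553 FPKM of the muscle marker DES with si5.

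Promoters of the members share a sequence feature, which is shown first because these genes are classical E2F targets. Stretches from 160 bases before to 30 bases after the RefSeq transcription start (GRCh38.p14) are given for MCM2 and MCM6, ring subunits that differed most and least between the ZSCAN5A siRNAs and si1, for CDC6, which differed most between si4 and si5, and for CDT1, which differed most between si1 and the control. Capitals mark words of the E2F type on either strand, spelled TTTCCCGC, TTTCCCGG, TTTCGCGC, TTTCGCGG, TTTGCCGC, TTTGCCGG, TTTGGCGC and TTTGGCGG. In the runs of MCM2 and MCM6, words on opposite strands overlap, and in CDT1 a pair of words lies side by side.
MCM2 (chr3:127598251-127598440, plus strand): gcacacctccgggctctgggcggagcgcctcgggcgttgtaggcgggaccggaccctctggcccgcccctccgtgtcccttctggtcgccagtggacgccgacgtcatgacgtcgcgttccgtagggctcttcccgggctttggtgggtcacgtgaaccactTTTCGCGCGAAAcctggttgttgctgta
MCM6 (chr2:135876414-135876603, minus strand): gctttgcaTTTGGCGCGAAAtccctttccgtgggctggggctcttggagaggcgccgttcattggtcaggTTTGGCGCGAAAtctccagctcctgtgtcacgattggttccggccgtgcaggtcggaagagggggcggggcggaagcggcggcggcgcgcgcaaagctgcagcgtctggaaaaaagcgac
CDC6 (chr17:40287719-40287908, plus strand): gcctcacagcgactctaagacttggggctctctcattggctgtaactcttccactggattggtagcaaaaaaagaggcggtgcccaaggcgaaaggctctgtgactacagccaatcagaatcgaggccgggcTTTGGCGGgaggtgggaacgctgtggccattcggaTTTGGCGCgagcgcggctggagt
CDT1 (chr16:88803629-88803818, plus strand): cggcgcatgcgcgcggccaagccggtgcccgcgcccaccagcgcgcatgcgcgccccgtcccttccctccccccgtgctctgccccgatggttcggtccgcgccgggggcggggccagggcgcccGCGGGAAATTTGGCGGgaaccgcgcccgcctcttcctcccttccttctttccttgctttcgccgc

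Promoter sequences were matched for 8 of the 10 members, and MCM4 and MCM5 were not analysed here. Within the full windows, from 250 bases before to 50 after the start, all 8 genes held at least 1 of these words, in 9 of their 12 annotated start windows. Among all 27305 genes with a promoter sequence, 7.43% held one. The 4 words that end in CGC were present in 6 of the 8 members (MCM2, MCM3, MCM6, MCM7, CDC6 and CDT1) and in 3.99% of all genes. In MCM6 the 12-base run occurred at 2 places, and a 12-base run of the same type lay just after the start of MCM2. The words of 7 of the 8 members came within 40 bases of an annotated start, and MCM6 was the exception. CCAAT boxes, the sites of NF-Y, were present in 6 of the 8 members, MCM2 and CDT1 being without one, and in 39.7% of all genes. The words were chosen after the promoters had been seen. A match describes letters in a window and was not tested for binding.

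**Figure D1:**
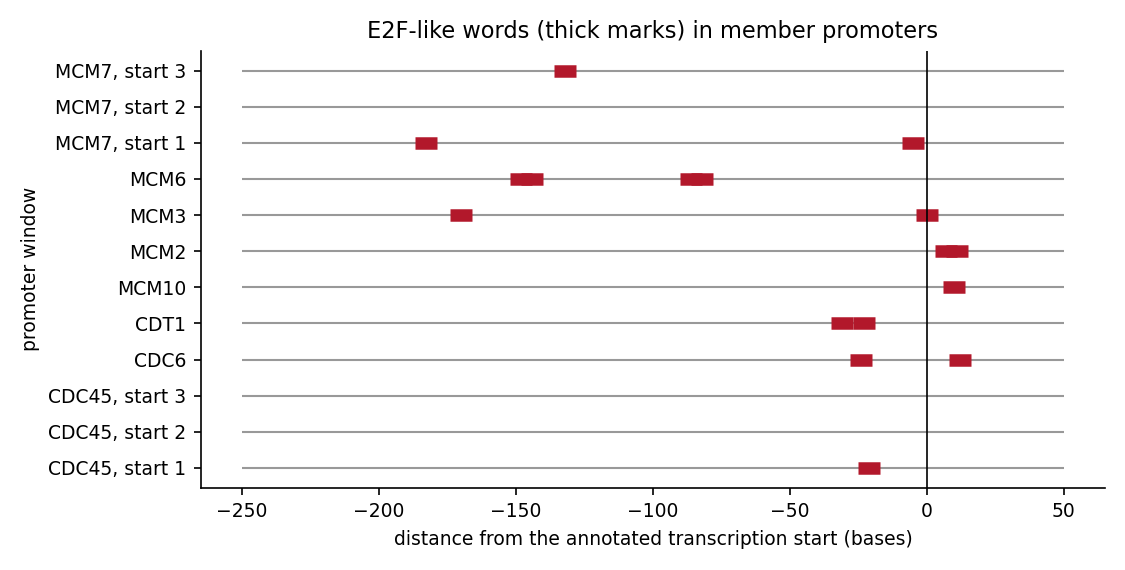
Positions of E2F-type words (thick marks) in the promoter windows of 8 members, with distance from the annotated transcription start on the x axis in bases and each annotated start window as a line. Marks lie in 9 of the 12 windows, and within 40 bases of a start in 7 of the 8 genes.

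All 10 genes were well expressed in every library, and their levels spanned more than 10-fold on the FPKM scale, which is per length and so allows comparison between genes. MCM7 had the highest level, at 225 FPKM (si4), 221 (si5), 201 (si1) and 207 (control), and MCM10 the lowest, with 15.7, 18.8, 17.3 and 17.1 FPKM in the same order. MCM3 followed MCM7, at 154, 152, 135 and 141 FPKM. MCM6 was next, with 79.5, 75.7, 75.2 and 71 FPKM. These 4 genes kept their places in all libraries. MCM2, MCM4 and MCM5 were at similar levels to one another, between 48 and 66.2 FPKM, and their order with si4 differed from that in the other libraries. CDC45 came after the ring subunits in every library. CDC6 and CDT1 exchanged places, with CDT1 above CDC6 with si4 and below it elsewhere. The MCM2-7 transcripts were thus at unequal levels, although each subunit takes the same share of the ring. The MCM7 level was 3.9 times that of MCM2 for the control library, 3.61 times for si4, 3.68 times for si5 and 4.19 times for si1.

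**Figure D2:**
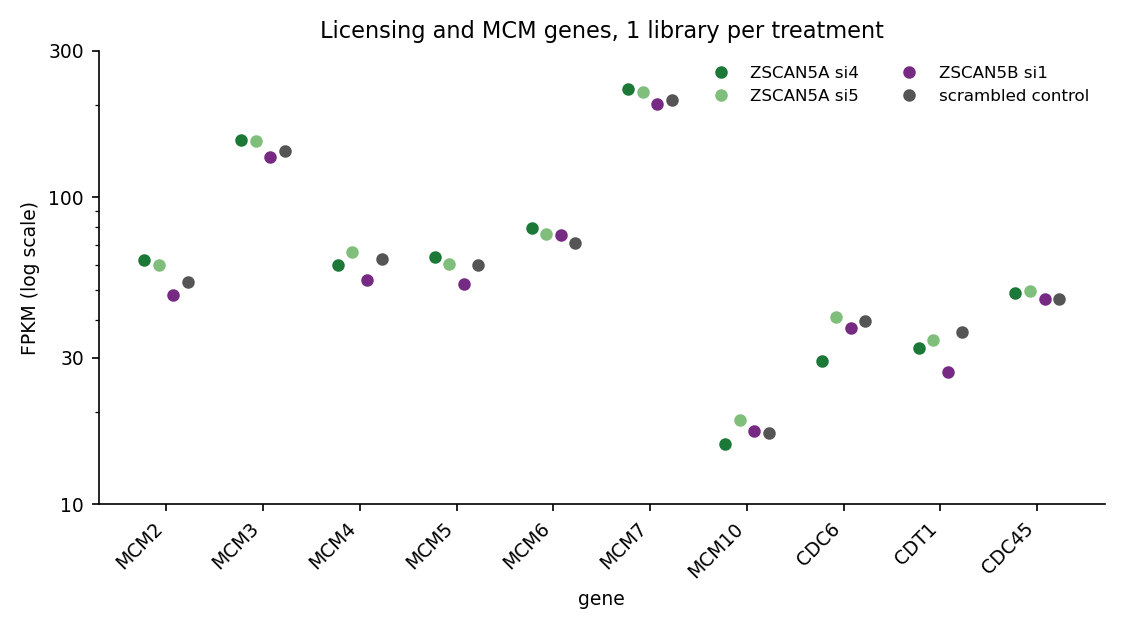
FPKM of each member on a log axis, with a point for each of the 4 libraries and no error bars because each treatment has 1 library. MCM7 and MCM3 stand above the rest, and the widest separation between libraries is that of CDC6, from 29.4 to 40.9 FPKM.

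On hg19 the members are spread over the genome, and only MCM5 and CDC45 share a chromosome. MCM2 is on chromosome 3 from 127317253 to 127341278 on the plus strand, with 16 exons in its canonical GENCODE transcript, and MCM3 on chromosome 6 from 52128812 to 52149582 on the minus strand, with 17. MCM4 is on chromosome 8 from 48872763 to 48890719 (plus strand, 17 exons), MCM5 on chromosome 22 from 35796116 to 35820495 (plus strand, 17 exons) and MCM6 on chromosome 2 from 136597196 to 136634011 (minus strand, 17 exons). MCM7 is on chromosome 7 from 99690404 to 99699427 (minus strand, 15 exons). MCM10 is on chromosome 10 from 13203554 to 13253104 (plus strand, 20 exons), CDC6 on chromosome 17 from 38444146 to 38459413 (plus strand, 12 exons), CDT1 on chromosome 16 from 88870186 to 88875666 (plus strand, 10 exons) and CDC45 on chromosome 22 from 19467414 to 19508135 (plus strand, 19 exons).

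Some members have close neighbours in the table. PRKDC, the catalytic subunit of DNA-dependent protein kinase, lies 19 bases from MCM4 and had 43.5, 41.7, 38.9 and 42.8 FPKM with si4, si5, si1 and the control. Both MCM4 and PRKDC were lowest with si1. The MCM7 locus contains the microRNA genes MIR106B, MIR93 and MIR25, and overlaps AP4M1, which had 6.21 to 6.59 FPKM, by 298 bases. The microRNA genes are listed at 0 in every library, but these are mRNA libraries and do not measure microRNAs. APRT, which lies 210 bases beyond CDT1, had 243, 206, 232 and 190 FPKM, so that it was above the control in all 3 siRNA libraries whereas CDT1 was below it.

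Knockdown of ZSCAN5A was examined with the mean of si4 and si5 against the control. All 6 ring subunits were at or slightly above the control, by at most 1.15-fold, while CDC6 and CDT1 were below it. None of the 10 members passed the 1.5-fold limit in either direction, where 3.77% of the 12935 genes tested did, and none passed 1.2-fold, where 26.9% did. A gene was tested when a library of the comparison reached 1 FPKM and neither side was at 0. MCM2 had the largest log2 ratio of the ring subunits, 0.205, with 62.3 and 60.1 FPKM where the control had 53.1. The other ring subunits had log2 ratios of 0.12 for MCM3, 0.13 for MCM6, 0.10 for MCM7, 0.05 for MCM5 and 0.002 for MCM4. With si4 alone MCM4 was below the control, at 60.3 against 63.2 FPKM.

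Among the other members CDC45 had 48.7 and 49.7 FPKM against 46.7, a log2 ratio of 0.08, and MCM10 a log2 ratio of 0.01. CDC6 had a log2 ratio of -0.17 and CDT1 one of -0.12. In all, 8 of the 10 members were higher than the control, as were 46.7% of all genes tested. The median log2 ratio was 0.112 for MCM2-7 and -0.02 for all genes tested, whose quartiles were -0.192 and 0.128. When FPKM was rescaled to the same sum in each library all members but MCM2 lay below the control, since the siRNA libraries have FPKM sums of 537181 to 546239 and the control 488036. That rescaling moved the median of all genes to -0.181. Relative to the median of all genes the MCM2-7 median was 0.132 as deposited and 0.14 after it, with the same 8 members above it under each scaling tried. Each scaling multiplies a whole library by a single factor, so values relative to that median could hardly change.

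**Figure D3:**
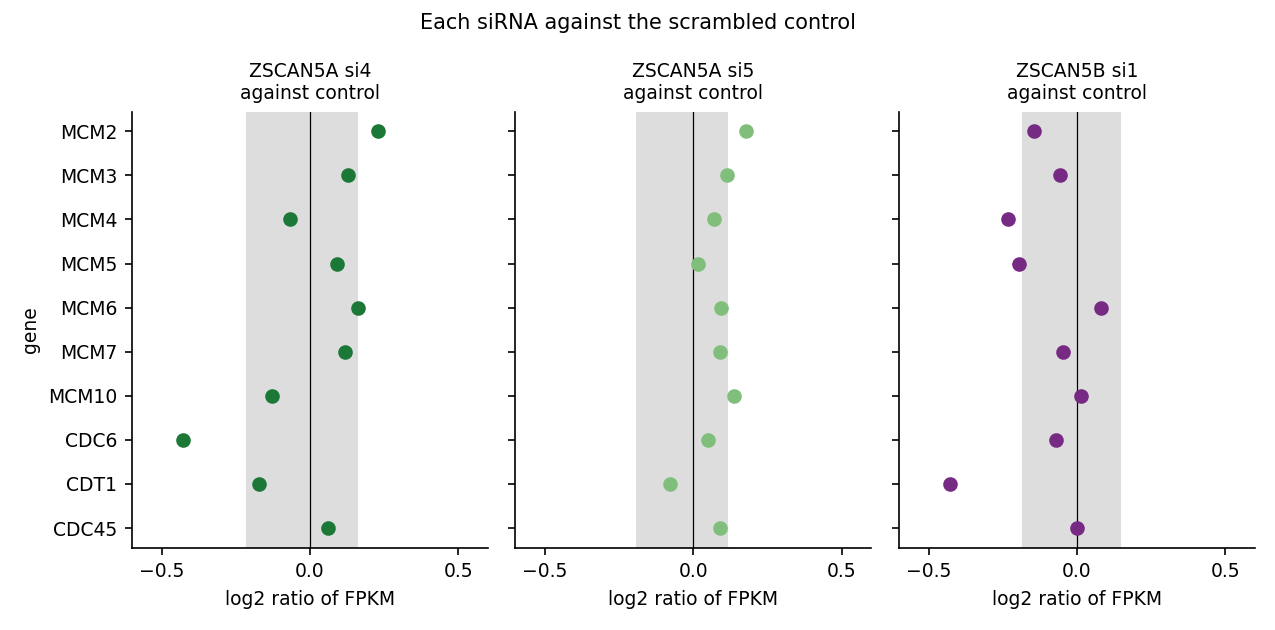
log2 ratio of FPKM of each member with si4, si5 and si1 (panels) against the scrambled control, with a grey band for the quartiles of all genes tested in that comparison. CDC6 with si4 (-0.43) and CDT1 with si1 (-0.43) lie farthest from 0, and every point is inside the 1.5-fold limit of 0.585.

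The ZSCAN5A siRNAs can also be set against each other, which gives the only pair of libraries that share a target gene. The median absolute log2 ratio of si4 to si5 was 0.072 over the 10 members and 0.114 over the 12748 genes tested. Ring subunits differed little, with log2 ratios of si4 to si5 from -0.135 for MCM4 to 0.07 for MCM5. CDC6, the ATPase that works with the origin recognition complex to load the ring, had 29.4 FPKM with si4 and 40.9 with si5, a log2 ratio of -0.475, while si1 and the control gave 37.6 and 39.5. Its level with si4 was thus apart from the other 3 libraries, which lay close together. Of 6390 genes with a mean of at least 10 FPKM, 2.71% had a difference between si4 and si5 as large in either direction. CDC6 was picked for this as the member with the largest difference. MCM10 was also lower with si4 than with si5, with a log2 ratio of -0.265. These were the 2 members past 1.2-fold between the siRNAs, where 17.4% of all genes tested were. The value of CDC6 in the mean of si4 and si5 therefore rests on si4, and with si5 alone its log2 ratio to the control was 0.05.

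The siRNA sequences were compared with the members' 3′ UTRs (canonical GENCODE transcripts), since siRNAs can lower transcripts that match bases 2 to 8 of the guide strand. The target sequences are given with the part that pairs with those bases in capitals.
si4: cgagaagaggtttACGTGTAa
si5: aagctagtcatccACAAGAGa
si1: acgtgtgcaataaATCATTTa

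A match to si4 was present in the 3′ UTR of MCM4, MCM5 and MCM10, and in 3.41% of 10914 genes that were above 0 in all libraries, reached 1 FPKM in at least 1 of them and have a 3′ UTR. Those genes had a median log2 ratio of si4 to the control of -0.295, against -0.009 for genes without a match. The log2 ratios of si4 to the control were -0.07 for MCM4, 0.09 for MCM5 and -0.13 for MCM10. CDC6 held no match to si4. The si5 site was in none of the members and in 12% of the genes. The si1 site was in MCM10 and in 23.6% of the genes, whose median log2 ratio with si1 was -0.059 against 0.006 without it, and MCM10 had 17.3 FPKM with si1 against 17.1. Any part of these matches in the members' values was not tested.

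In the library labelled as ZSCAN5B knockdown the members were mostly below the control, with CDT1 the lowest. None of the 10 passed the 1.5-fold limit, where 4.00% of 12866 genes tested did. CDT1, the loading factor that geminin holds in check, had 27 FPKM, while the control had 36.3, si4 32.3 and si5 34.4. Its log2 ratio was -0.43, and it was the only member past 1.2-fold, where 28.4% of all genes tested were. Of the 6391 genes with a mean of at least 10 FPKM, 3.05% had a lower ratio, a share given for CDT1 because it was the most extreme of the 10 members. GMNN, which encodes geminin, was above the control, at 118 FPKM where the control had 107, so the CDT1 level was 0.229 times that of GMNN in the si1 library and 0.34 times in the control, with 0.26 and 0.295 for si4 and si5.

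Ring subunits had smaller values. MCM4 had 53.8 FPKM against 63.2 (log2 ratio -0.23), MCM5 had 52.4 against 60 (-0.195) and MCM2 had 48 against 53.1 (-0.15). The log2 ratios of MCM3 and MCM7 were -0.06 and -0.05. MCM6 alone among the ring subunits was above the control, with 75.2 against 71 FPKM (0.08). Of the other members, CDC6 had a log2 ratio of -0.07, MCM10 one of 0.01 and CDC45 one of 0.002. In all, 3 of 10 members (MCM6, MCM10 and CDC45) were higher, as were 48.5% of all genes tested. The same 3 lay above the median of all genes under each scaling tried, which scaling of whole libraries could hardly change. The MCM2-7 median was -0.102, against -0.01 for all genes tested. Rescaled to the same FPKM sum, every member was below the control, and relative to the median of all genes, then -0.153, the MCM2-7 median was -0.087. When genes were set against others of similar length and GC content, MCM3 with si1 was at 0.006 and CDC45 at -0.077. Each had changed sign, where 0 is then the median of those similar genes and not the control.

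Because both comparisons use the same control library, its peculiarities enter both. CDT1 was the 1 member below the control in all 3 siRNA libraries, as were 36.2% of all genes, and MCM6 and CDC45 were the 2 members above it in all 3, as were 30.1%. For CDC45, though, si1 and the control differed by only 0.002 on the log2 scale.

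A comparison that does not use the control, chosen after the values were seen, set si4 and si5 against si1. All 6 ring subunits, CDT1 and CDC45 were higher with both ZSCAN5A siRNAs than with si1. This makes 8 of 10 members, and 29.5% of 12926 genes above 0 in all libraries showed that order. No member had si4 and si5 both below si1, an order found for 35.2% of the genes. MCM2 had 62.3 and 60.1 FPKM against 48 with si1, a log2 ratio of 0.35, the highest of the members. Of the genes with a mean of at least 10 FPKM, 1.38% had a higher one. For CDT1 the log2 ratio was 0.31, for MCM5 0.25, for MCM4 0.23, for MCM3 0.18 and for MCM7 0.15. MCM6 had only 0.045, smaller than its own log2 ratio of si4 to si5 of 0.07. MCM10 and CDC6, the members that differed between si4 and si5, had -0.004 and -0.10. The si1 library was below each of the other 3, control included, for 6 members (MCM2, MCM3, MCM4, MCM5, MCM7 and CDT1), as it was for 20.0% of all genes. The median log2 ratio of MCM2-7 was 0.206, against -0.012 for all genes tested. With 1 library on the si1 side, this difference has no replicate check. Some lists described below showed it too. In the mean of si4 and si5, 14 of 15 other G1/S genes were higher than with si1 (median log2 ratio 0.171), and 12 of 15 G2/M genes (0.116). So were 43 of 63 other replication genes (0.053), where 46.2% of all genes tested were. The origin recognition complex (2 of 6, -0.017) and the E2F, DP and pocket protein genes (6 of 13, -0.029) did not show it.

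**Figure D4:**
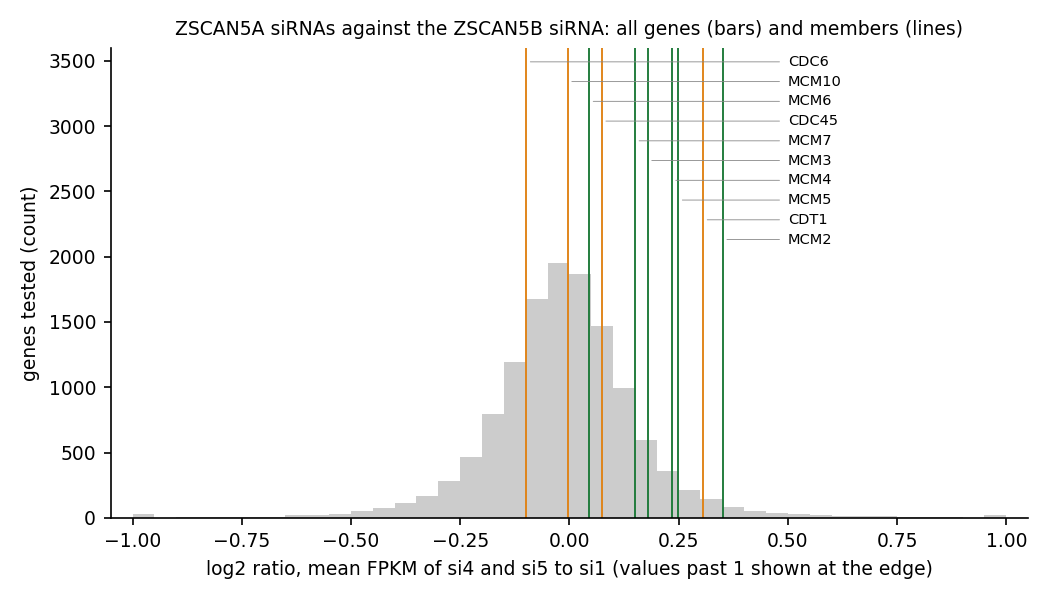
Histogram over all genes tested of the log2 ratio between the ZSCAN5A siRNAs (mean FPKM) and si1, with lines at the ring subunits (green) and the other members (orange). MCM2 (0.35), CDT1 (0.31), MCM5 (0.25) and MCM4 (0.23) lie on the right flank, and CDC6 (-0.10) lies left of 0.

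The rest of the replication machinery was taken from lists of 64 other genes, of which 63 were tested. None passed 1.5-fold in the mean of si4 and si5, where 38 were higher and 25 lower than the control, and none passed with si1, where 31 were higher and 32 lower. The median log2 ratios were 0.058 and -0.003, so these genes as a list were close to the control in both comparisons. The origin recognition complex, which marks the origins at which the ring is loaded, had a median log2 ratio of 0.138 with the ZSCAN5A siRNAs and 0.177 with si1, each with 4 of 6 genes higher. ORC4 (12.7, 12.6, 12 and 10.3 FPKM with si4, si5, si1 and the control) had the highest value with the ZSCAN5A siRNAs and ORC3 with si1 (0.255). ORC1, the subunit whose level follows the cell cycle, had the lowest in both, at 10.6, 11.1, 10.2 and 12.1 FPKM.

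Genes that control licensing, from geminin to the CUL4 ligase that destroys CDT1, were near the control, with medians of 0.005 and -0.005 over 9 genes. GMNN had the highest log2 ratio with the ZSCAN5A siRNAs (0.17) and DTL, the substrate receptor of that ligase, the lowest (-0.09). With si1 the highest was DDB1 (0.18) and the lowest CUL4A (-0.21), both parts of the same ligase.

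Among 16 factors of helicase activation the medians were 0.063 and 0.04. DBF4, the activating subunit of the CDC7 kinase that phosphorylates the ring, had the highest value in both comparisons, with 13.7, 13.2, 13.1 and 10.6 FPKM in the order si4, si5, si1 and control. GINS4, a subunit of the GINS complex that joins CDC45 on the ring, had the lowest in both, with 6.37, 6.28, 5.62 and 8.27 FPKM and log2 ratios of -0.39 and -0.56, and its 3′ UTR holds a match to si1. Of the MCM paralogs outside the replicative ring, MCM8 had log2 ratios of 0.13 and -0.01 and MCM9 of -0.07 and 0.09, and MCMDC2 was below the expression limit.

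For 12 replicative polymerase and primase genes the medians were 0.07 and 0.065. POLE4, a small subunit of polymerase epsilon, had the highest log2 ratios (0.30 and 0.47). POLE3, its partner subunit, had the lowest with the ZSCAN5A siRNAs (-0.26), where si4 gave 29.4 FPKM, si5 53.4 and the control 49.5, and the 3′ UTR of POLE3 holds a match to si4 and to si5. POLD3 had the lowest with si1 (-0.46). Over 18 clamp, clamp loader and fork genes the medians were 0.057 and -0.015. RPA3 and CHTF18 were the extremes with the ZSCAN5A siRNAs (0.30 and -0.20), and RNASEH2B and LIG1 with si1 (0.20 and -0.35).

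**Figure D5:**
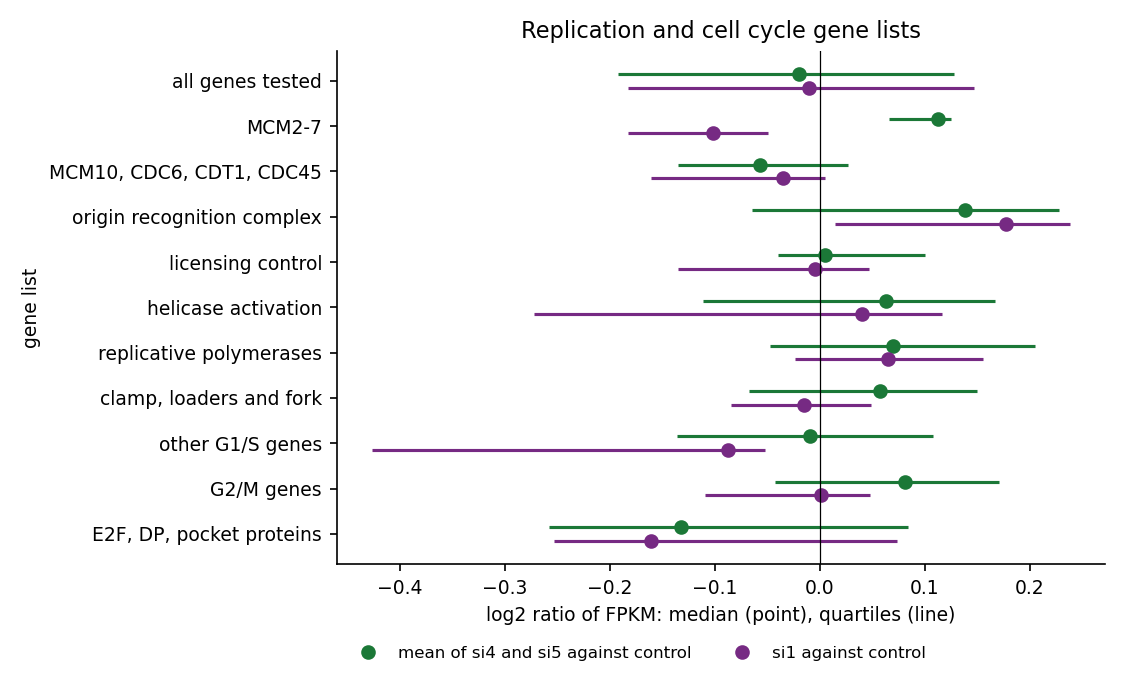
Median (point) and quartiles (line) of the log2 ratio of FPKM for all genes tested, MCM2-7, the other 4 members, 5 lists of replication genes and 3 lists of cell cycle genes, with the mean of si4 and si5 (green) and si1 (purple) against the scrambled control. MCM2-7 is at 0.112 and -0.102 in these comparisons, and the origin recognition complex is at 0.138 and 0.177.

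Genes that mark stages of the cell cycle were read beside the members. Of 15 other G1/S genes, 14 were lower than the control with si1, as were 6629 of the 12866 genes tested. The median log2 ratio of these G1/S genes was -0.088, inside the quartiles of all genes tested (-0.183 and 0.147). In the mean of si4 and si5, 7 of the 15 were higher, as were 46.7% of all genes tested, and the median was -0.009. RRM2, a subunit of ribonucleotide reductase, was the 1 gene past 1.5-fold, at 46.5 FPKM in the si1 library, 87.9 in the control, 54.1 after si4 and 79.7 after si5. Its level with si4 was thus also below that with si5, the same order as for CDC6. That order held for 10 of the 15 G1/S genes, 13 of the 15 G2/M genes and 5792 of the 12748 genes tested. RRM2 had the lowest log2 ratio of the list with the ZSCAN5A siRNAs too (-0.39). Over 15 G2/M genes the medians were 0.081 and 0.001. CENPF and PLK1 were their extremes with the ZSCAN5A siRNAs (0.445 and -0.23), and CCNB1 and MKI67 with si1 (0.215 and -0.40).

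The E2F, DP and pocket protein genes, regulators of the members, had medians of -0.132 and -0.161 over 13 genes. TFDP1, the DP partner of the E2F factors, had 25.8 FPKM in the si1 library and 63.8 in the control (log2 ratio -1.31), while si4 and si5 gave 61.6 and 59.8. TFDP1 was the lowest of the list with si1. Its 3′ UTR holds a match to si1, as does that of RRM2. No match to si1 was found for POLD3 and RECQL4, which were also below the control with si1 (-0.46 and -0.48). E2F7, a repressor of the family, had 10.9, 11 and 10 FPKM with si4, si5 and si1 against 16.1, log2 ratios of -0.56 and -0.69, and so passed 1.5-fold with si1. The 3′ UTR of E2F7 holds a match to si5 but none to si4 or si1. E2F2 had the highest value with the ZSCAN5A siRNAs (0.29) and E2F6 with si1 (0.22). TFDP1 and the members MCM2, MCM3, MCM4, MCM5, MCM7 and CDT1 were thus all lowest in the si1 library, TFDP1 by far more. The other members were not: MCM6 and CDC45 were lowest in the control, and MCM10 and CDC6 with si4. Whether the TFDP1 level bears on the members was not tested.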

How the data were processed

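HEK-293 RNA from 4 siRNA treatments was sequenced as 1 mRNA library each. Sources name 2 different stranded mRNA kits. The authors deposited FPKM values for 24934 gene rows, and the submitters' processing notes list CASAVA 1.8.2, Trimmomatic 0.30, TopHat2 2.1.0, Cufflinks 2.2.1 and hg19. Of these rows, 5031 are at 0 in every library. Where 543 symbols stood on more than 1 row, the row with the highest mean was used. No further normalization was applied. The table holds 0 other columns of values per sample.

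For ZSCAN5A the mean FPKM of si4 and si5 was divided by the control, since the study analysed these siRNAs as a group, and for ZSCAN5B the si1 value. The adjusted p-value of the study was not repeated, because each siRNA has 1 library. A gene was called when its ratio passed 1.5-fold, some library of the comparison reached 1 FPKM and neither side was at 0, with no pseudocount. Relative depth came from 1655 genes under 0.1 FPKM, of which 76% stood in whole-number proportions (numbers up to 40, tolerance 0.2%). Fragments of the members are approximate, since transcripts and lengths used by Cufflinks are not given in the sources used here. The code for ratio calls and depth was checked on simulated data, with little noise and planted changes well past the 1.5-fold limit. That check does not bear on smaller changes or on variation between cultures.

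The members and gene lists were chosen with earlier results of these data known. Named genes are all members, both siRNA targets and, from each other list, genes past 1.5-fold and the highest and lowest log2 ratio in each comparison. One item under this rule is not reported here. Genes named as neighbours of the members were named for that reason. Outside the members, siRNA matches were looked for only in TFDP1, RRM2, E2F7, POLE3, POLD3, RECQL4 and GINS4. Each of these was below the control in some siRNA library, so the matches found are not a survey of the lists. PAX2 of the HEK-293 list passed 1.5-fold downward in both comparisons. Transcripts came from GENCODE v44 lifted to GRCh37, promoters from RefSeq (GRCh38.p14). Python 3.11.15, NumPy 2.4.6, pandas 2.3.3 and matplotlib 3.10.9 were used. Alternatives covered scaling, pseudocount, expression and fold limits, summing of rows under one symbol, si4 or si5 alone and, added after seeing the data, transcript length with GC content.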

Additional observations from a re-analysis of the deposited data

Results flagged for a closer look

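For 4 ring subunits both ZSCAN5A siRNA libraries were above the control and the si1 library was below it. The log2 ratios to the control, for the mean of si4 and si5 and for si1, were 0.20 and -0.15 for MCM2, 0.12 and -0.06 for MCM3, 0.05 and -0.20 for MCM5, and 0.10 and -0.05 for MCM7. The difference was not tested, since si1 and the control have 1 library each. Rescaled to the same FPKM sum, MCM3, MCM5 and MCM7 were below the control in all 3 siRNA libraries. The length and GC correction sets each ratio against the median ratio of similar genes, so 0 is then not the control. On that scale MCM3 no longer showed the opposite directions, with 0.186 for the ZSCAN5A siRNAs and 0.006 for si1. MCM2 was at 0.313 and -0.073, MCM5 at 0.162 and -0.122 and MCM7 at 0.109 and -0.038.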

How the results depend on the processing

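No paired analysis was possible because each treatment has 1 library. A value was taken as moved when it shifted by more than the median absolute log2 ratio of si4 to si5 over all genes (0.114), or by over 1.5 times for a count. Scaling to the same FPKM sum moved all 10 members in both comparisons. With the ZSCAN5A siRNAs it took the median of the 10 members from 0.065 to -0.089, that of MCM2-7 to -0.041, and the members above the control from 8 to 1. With si1 it took the median of the 10 members from -0.065 to -0.203, that of MCM2-7 to -0.24, and the members above the control from 3 to 0. Members below the control in all 3 siRNA libraries went from 1 to 9 and those above it from 2 to 0. Median-ratio and upper-quartile scaling left these values within the limits. A limit of 1.2-fold gave 1 member with si1. Counts of all genes past the fold limit were 488 for the ZSCAN5A siRNAs and 514 for si1. They became 3475 and 3655 at 1.2-fold, 71 and 67 at 2-fold, 1190 and 1126 with the same FPKM sum, 205 and 249 at a limit of 5 FPKM, 2428 and 2290 without a limit, 197 and 208 with a pseudocount of 1, and 241 and 286 after the length and GC correction. With si4 alone the first count was 814. The other 108 alternative values of these summaries stayed within the limits. Many of them could not have moved and are no check. A fold limit does not enter a median or a count of members above the control. Every member was also above each expression limit and on a single row. Of the members' own ratios, 2 moved with si4 alone and 2 with si5 alone (CDC6, at -0.427 and 0.048, and MCM10, at -0.128 and 0.137).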
